A study of Drosophila melanogaster with 3 samples.

Results

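Peaks of the protein family Mod(mdg4) that met no called peak of its 2.2 isoform or of the chromatin protein L(3)mbt were examined. The cells were Kc167, a line derived from Drosophila melanogaster embryos. Each antibody gave 1 ChIP-seq library and 1 deposited peak list. One antibody was directed at Mod(mdg4)2.2, one at the BTB domain of Mod(mdg4), which all isoforms share, and one at L(3)mbt. All 3 libraries came from the same unmodified line in serum-free medium, fixed in 1% formaldehyde for 10 min and sheared to 200 to 1000 bp, with ligated fragments of 200 to 300 bp taken from a gel. The control reads belong to another study of the line and were not analysed here. Of the 13819 peaks in the 3 lists, 7621 are BTB peaks, and 6144 of these lie on the long chromosome arms 2L, 2R, 3L, 3R and X.

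The weaker BTB-only peaks were chosen by measured values: a BTB score under 3100, a place on a long arm, and not 1 bp in common with any peak of the other lists. The rule took 1693 peaks, which is 27.6% of the long-arm BTB peaks and covers 1134 kb. "Weaker" refers to the score of the peak caller alone. The score is the authors' value for each peak, ran from 100.01 to 3233.06 in the BTB list of the long arms, and stood at exactly 3100 in 1850 of these peaks. Scores and overlaps used for the choice are given as description. With 1 library per antibody no difference has a replicate check, and no test was made. Intervals are 95% intervals (Wilson for shares, order statistics for medians) and cover counting error only. Peaks are not independent samples, and the sequencing depth is unknown.

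Mod(mdg4) proteins are made by trans-splicing, which joins a common part with the BTB domain to many different C-terminal ends, most of them with a FLYWCH-type zinc finger. The BTB domain serves in contacts between proteins, while the C-terminal ends differ in their partners. The 2.2 isoform is brought to DNA by the zinc-finger protein Su(Hw) and acts with it and CP190 in insulators, elements that separate an enhancer from a promoter or set the limits of chromatin domains. L(3)mbt is a protein with MBT repeats, a fold that can bind methylated histone tails, and its loss gives brain tumours in larvae. A BTB peak with no 2.2 peak may hold other isoforms, but which isoform was bound cannot be read from these lists.

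Most of the weaker BTB-only peaks had low scores. Their median score was 283 (267 to 306), and the middle 50% lay between 154 and 730. In all, 623 of them scored under 200, which is 36.8%, while 98 scored 2000 or more and 12 scored 3000 or more. The median was lower than for BTB peaks under 3100 that met L(3)mbt without 2.2, at 381 (349 to 413, n = 1251), or met 2.2 without L(3)mbt, at 637 (587 to 685, n = 1095). By arm the median ran from 267 on 3R to 341 on 2L. At the upper edge of the rule stood a peak on X at 16229213 to 16229834, with a score of 3097.58, and peaks on 3L at 3543189 to 3543965 and 21628299 to 21629095, with 3070.11 and 3066.88. Just outside it were 495 BTB-only peaks tied at exactly 3100, such as 2L at 142656 to 143899, and 15 more lay above 3100. The lowest scores were 100.16 on 2L at 11567183 to 11567696, 100.21 on 3R at 11182805 to 11183200, and 100.41 on 2R at 8259918 to 8260442. These 3 had widths of 514, 396 and 525 bp.

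The share of BTB peaks that met neither other list was highest among the lowest scores. It was 53.9% of the 1155 BTB peaks scoring 100 to 200 (51.1 to 56.8%) and 39.4% of the 1255 peaks at 200 to 500 (36.77 to 42.17%). Between 500 and 1000 it was 31.7% (28.6 to 35.0%), between 1000 and 2000 33.0% (29.5 to 36.7%), and between 2000 and 3100 26.6% (22.3 to 31.3%). At or above 3100 it was 27.0% of 1889 peaks (25.04 to 29.05%). Most of the drop thus lay below a score of 500. From there up to 3100 the intervals of neighbouring bands overlapped. Each arm showed the high share in the lowest band, from 51.0% on 3L (44.8 to 57.3%) to 56.2% on 2L (48.7 to 63.5%). Over the same range the share with 2.2 alone went from 15.1% (13.1 to 17.2%) at 100 to 200 to 41.7% (36.8 to 46.8%) at 2000 to 3100. The share with L(3)mbt alone moved less, from 29.1% (26.5 to 31.8%) to 24.1% (20.04 to 28.74%). Scores, widths and detection in each list depend on library depth, and the part of depth in these shares was not tested.

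**Figure D1:**
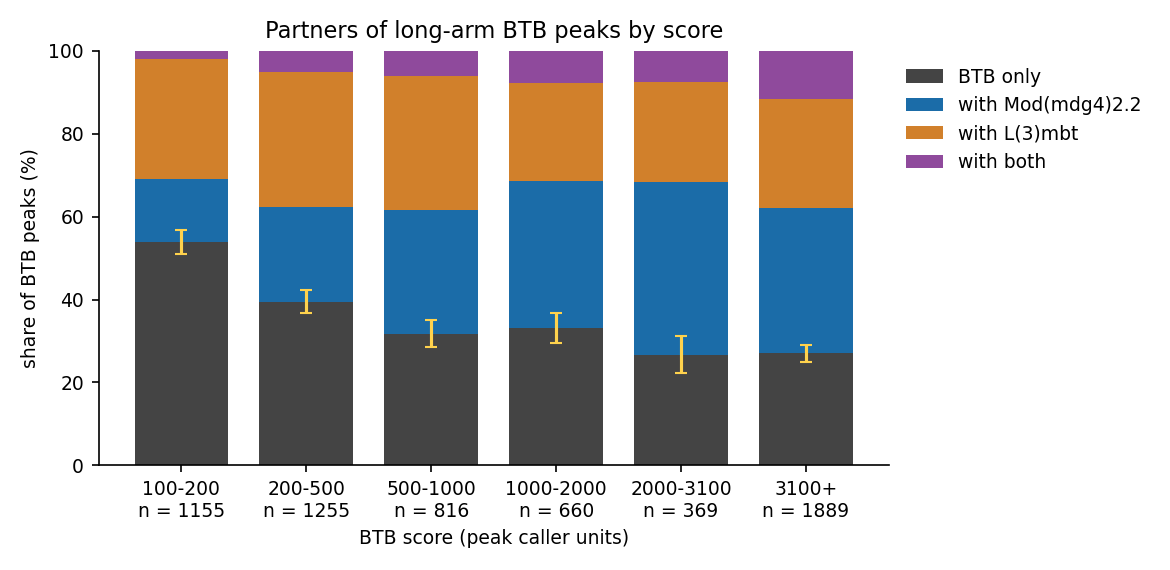
Share of the long-arm BTB peaks in each band of BTB score that met no other list, 2.2 alone, L(3)mbt alone or both, with the number of peaks under each bar. Error bars are 95% Wilson intervals of the BTB-only share, which falls from 53.9% in the lowest band to 27.0% at or above 3100.

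Typical weaker BTB-only peaks were narrow. Their median width was 558 bp (550 to 564 bp), and the middle 50% lay between 499 and 684 bp. The median rose with the score, from 502 bp at 100 to 200 and 556 bp at 200 to 500 to 656.5 bp at 1000 to 2000 and 762 bp at 2000 to 3100. Across the 1693 peaks the log2 of score and width had a Pearson correlation of 0.37 and a Spearman correlation of 0.52. Both measures come from the same library, and the source of the relation was not tested. In each score band the BTB-only peaks were narrower at the median than those with L(3)mbt alone, for example 615 bp (594 to 639 bp) against 681 bp (646 to 728 bp) at 500 to 1000. The intervals met at 507 bp at 100 to 200 and overlapped at 2000 to 3100 (685 to 861 bp against 755 to 915 bp). Against peaks with 2.2 alone they were wider from a score of 200 up, for example 656.5 bp (632 to 707 bp) against 606 bp (595 to 616 bp) at 1000 to 2000. Those intervals overlapped at 200 to 500 (549 to 563 bp against 538 to 550 bp) and at 2000 to 3100 (685 to 861 bp against 628 to 703 bp). At 100 to 200 the medians were 502 bp (498 to 507 bp) and 505 bp (498 to 510 bp), with overlapping intervals. A narrow peak is less likely to share a base with another list, so width is tied to the choice of the peaks. The narrowest were 271 bp at 9490791 to 9491061 and 277 bp at 8958295 to 8958571 on 2L, with scores of 697 and 1540, and 290 bp on 3L at 14390216 to 14390505, with 146.

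**Figure D2:**
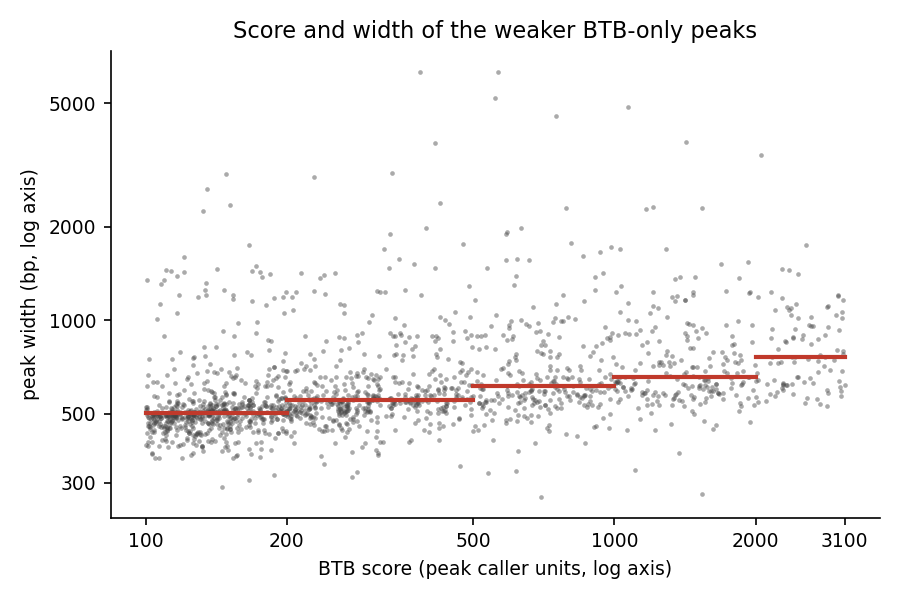
BTB score against width for each of the 1693 weaker BTB-only peaks, both on log axes. Red lines give the median width in each score band, from 502 bp at 100 to 200 to 762 bp at 2000 to 3100, and peaks far above the lines are broad for their score.

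A small group was far broader at low or middling scores. In all, 42 weaker BTB-only peaks were 1500 bp or wider (2.48%, 1.84 to 3.34%), against 5% of all long-arm BTB peaks. Of the weaker BTB-only peaks, 19 were 2000 bp or wider (1.12%, 0.72 to 1.75%). The 8 of 3000 bp or more had scores from 385 to 2050, with a median of 658. Among the 1251 weaker BTB peaks with L(3)mbt alone 0 reached 2000 bp, which allows a share of up to 0.240% (3 counts). Among the 1095 with 2.2 alone 32 did (2.92%, 2.08 to 4.10%), a higher share than among the BTB-only peaks, so such breadth was not particular to them. The 3 widest weaker BTB-only peaks were 6307 bp on 2R at 4665446 to 4671752, with a score of 564, 6305 bp on 3R at 12582095 to 12588399, with 385, and 5215 bp on 3R at 4723935 to 4729149, with 556. Their nearest 2.2 peaks lay 127390, 7105 and 25287 bp away.

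Broad peaks also lay side by side. Reading the BTB list along each arm, the 1693 peaks fell into 1121 unbroken runs, of which 766 held 1 peak and 124 held 3 or more. Those 124 runs took in 465 peaks (27.5%). Runs of other classes were not counted, so this share has no background beside it. One run stood out as a nearly continuous block, on 2R from 15616198 to 15639508. It held 10 peaks, whose widths added up to 20.8 kb of its 23.3 kb, with gaps of only 230 to 420 bp between them. Widths in the block went from 795 to 3745 bp, and scores from 185 at its first peak to 2050 near its middle, with a median of 689. No peak of 2.2 or of L(3)mbt lay inside the block, but the rule bars overlap and the short gaps left little room for one. Its first peak lay within 500 bp of an L(3)mbt peak and of a BTB peak with L(3)mbt alone. Past its last peak the run was broken by a BTB-only peak at or above 3100. More weaker BTB-only peaks followed, the nearest within 500 bp of that strong peak. The score limit thus set this end of the run. The gap between its last peak and the strong peak is not given here, so the end of the block is not settled.

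The longest run held 14 peaks on X, between 13882633 and 13998047. It was looser, with 23.6 kb of peaks in 115.4 kb, but 7 of its peaks made up a block from 13940687 to 13955563 with gaps of 13 to 437 bp. The first peak of that block was 4858 bp wide and scored 1069, and the other 6 scored 132.5 to 497. One further peak of the run scored 2996 (13908508 to 13909708), 1 L(3)mbt peak lay within the run without touching a BTB peak of it, and no 2.2 peak did. Of the 19 weaker BTB-only peaks of 2000 bp or more, 10 belonged to these 2 runs. The third run named, the first in order of 3 with 7 peaks each, lay on 3L from 342617 to 446636. Its peaks were 499 to 996 bp wide and up to 54169 bp apart, so it was a stretch without other classes and not a block. It held 1 peak of 2.2 off the BTB peaks and none of L(3)mbt. Which genes or repeats lie at these places was not analysed here.

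Along the arms the weaker BTB-only peaks were spread widely. There were 14.3 per Mb over all arms, from 13.1 on 2L to 16.3 on 2R, with 13.4 on 3R, 13.9 on 3L and 14.97 on X. Arm lengths here run to the last peak end found in the 3 lists. They made up 25.3% (23.2 to 27.6%) of the BTB peaks of 3R and 29.6% (26.9 to 32.5%) of those of 2L, with the other arms between. X held 19.8% of the weaker BTB-only peaks (17.96 to 21.75%) and 17.3% of the 510 BTB-only peaks at or above 3100 (14.2 to 20.8%), for 18.9% of the length. The intervals of the last 2 shares overlap.

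Each of 116 full windows of 1 Mb held at least 3 weaker BTB-only peaks, with a median of 14 (middle 50% from 11 to 17) and a highest count of 34. That highest window lay on 3R from 12000001 to 13000000, where they were 34 of 90 BTB peaks. The next were 2R from 7000001 to 8000000, with 31 of 76, and 2R from 15000001 to 16000000, with 29 of 63, which contains the block of 10 peaks. The last was tied with X from 13000001 to 14000000, with 29 of 68, which contains the run of 14 peaks. The lowest was 3L from 23000001 to 24000000, with 3 of 8. Across windows the count moved little with that of other BTB peaks (Pearson correlation 0.22, Spearman correlation 0.16). With the count of BTB peaks that met 2.2, these were -0.02 and -0.03, and with that of BTB peaks that met L(3)mbt 0.25 and 0.18. With the count of BTB-only peaks at or above 3100 they were 0.28 and 0.22. Windows of an arm are neighbours and share its library and mappability, so these values describe the map only.

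**Figure D3:**
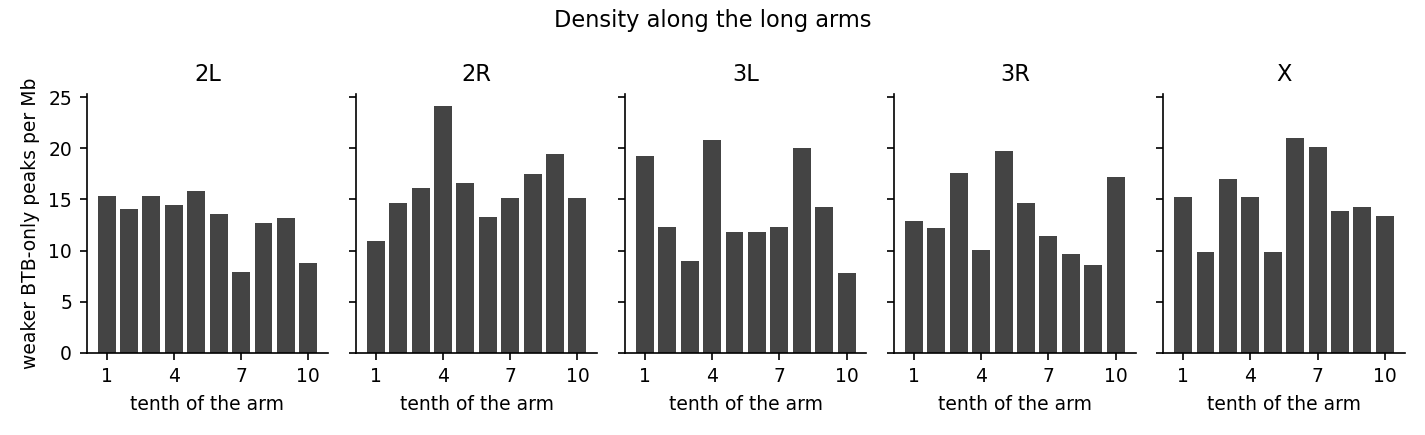
Weaker BTB-only peaks per Mb in each of 10 equal parts of the 5 long arms, counted from the first base of the arm. Values run from 7.77 per Mb in the last part of 3L to 24.2 in part 4 of 2R.

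The median gap, from edge to edge, between a weaker BTB-only peak and the nearest BTB peak of any class was 4828 bp (4397 to 5243 bp), against 4100 bp over all long-arm BTB peaks and 3296 bp (2817 to 3802 bp) for weaker ones with L(3)mbt alone. Another BTB peak lay within 5 kb of 50.9% of them (48.5 to 53.3%), against 55.0% of all long-arm BTB peaks, a share that includes them. It was below the share of all BTB peaks on 5 of 5 arms, but the order turned when sharing was judged by peak centres within 200 bp, with 58.9% against 55.0%, or with peaks set to 400 bp, with 55.8% against 53.1%. Those settings add peaks that touch a wide peak of another list away from its centre. BTB-only peaks at or above 3100 had 52.7% (48.4 to 57.0%), and weaker BTB peaks with L(3)mbt alone 60.1% (57.4 to 62.8%). The order against the latter turned too, with 58.9% against 50.3% by centres within 200 bp and 55.8% against 52.1% at 400 bp. Within 1 kb the shares were 21.6% (19.7 to 23.6%) for weaker BTB-only peaks and 24.8% for all long-arm BTB peaks. The share was not lower among low scores: another BTB peak lay within 5 kb of 54.4% (50.5 to 58.3%) of those scoring 100 to 200 and 45.9% (36.4 to 55.8%) of those at 2000 to 3100.

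Few of the weaker peaks lay at the foot of a strong one, and this was not particular to BTB-only peaks. A BTB peak at or above 3100 was within 500 bp of 75 weaker BTB-only peaks (4.43%, 3.55 to 5.52%) and within 1 kb of 127 (7.50%, 6.34 to 8.85%). For weaker BTB peaks with 2.2 alone these shares were 3.65% (2.69 to 4.94%) and 5.02% (3.88 to 6.48%). With L(3)mbt alone they were 4.72% (3.67 to 6.04%) and 7.35% (6.03 to 8.93%). Of the 75 strong neighbours within 500 bp, counted once for each weaker peak, 40 were themselves BTB-only (53.3%) and 23 met L(3)mbt alone (30.7%). Another 5 met 2.2 alone (6.67%) and 7 met both (9.33%). Over all BTB peaks at or above 3100 these shares were 27.0, 26.3, 35.1 and 11.6%, in the same order. Wide 2.2 and L(3)mbt peaks can cover BTB peaks beside them, which keeps those out of the BTB-only class. The contrast is thus tied to the rule, and how much of it comes from this was not tested. The weaker BTB-only peak with the second highest score had a strong BTB-only peak 37 bp away.

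The nearest BTB neighbour was often of the same kind. It was BTB-only for 777 of the 1693 weaker BTB-only peaks (45.9%, 43.5 to 48.3%), against 34.5% of all long-arm BTB peaks, and the share was higher than that of all BTB peaks on 5 of 5 arms (42.7% on X to 49.1% on 2R). It was not particular to them: among BTB-only peaks at or above 3100 the share was 50.8% (46.5 to 55.1%). Likewise, weaker BTB peaks with 2.2 alone had a neighbour with 2.2 alone in 57.4% (54.5 to 60.3%), and those with L(3)mbt alone a neighbour with L(3)mbt alone in 53.9% (51.1 to 56.6%). The margin over all BTB peaks was smaller with sharing judged by centres within 200 bp, at 63.8% against 59.3%. It was also smaller with peaks set to 400 bp, at 53.7% against 49.5%. It also varied with distance. With a neighbour up to 1 kb away the share was 60.9% (55.8 to 65.8%, n = 366), against 31.0% (28.7 to 33.3%) for all BTB peaks. For BTB-only peaks at or above 3100 it was 68.1% (59.2 to 75.9%) at that distance. At 1 to 5 kb weaker BTB-only peaks had 44.4% (40.0 to 48.8%, n = 496), and all BTB peaks 34.4% (32.3 to 36.6%). At 5 to 20 kb the shares were 40.1% (36.3 to 43.9%, n = 639) and 36.3% (34.2 to 38.3%). Beyond 20 kb they were 40.6% (33.9 to 47.7%, n = 192) and 37.4% (33.8 to 41.3%), with overlapping intervals. Wide 2.2 and L(3)mbt peaks can cover adjacent BTB peaks, which by itself makes close neighbours alike, and how much of the share at short range comes from this was not tested. The scores of neighbours hardly moved together: over the 594 weaker BTB-only peaks whose nearest BTB peak was another of them, the Spearman correlation was 0.09.

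**Figure D4:**
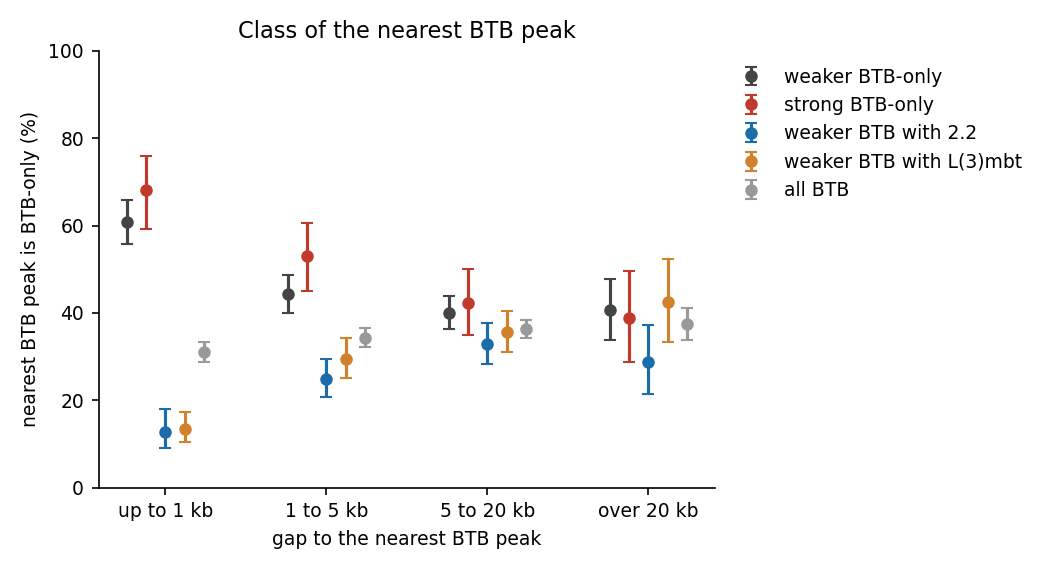
Share of BTB peaks whose nearest BTB peak was BTB-only, by class of the peak and by the gap to that neighbour, with 95% Wilson intervals. Weaker BTB-only peaks have 60.9% up to 1 kb and 40.1% at 5 to 20 kb, while weaker BTB peaks with 2.2 have 12.8% and 32.8%.

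The nearest 2.2 peak lay a median of 19836 bp from a weaker BTB-only peak (18817 to 21761 bp), and the nearest L(3)mbt peak 13179 bp (11934 to 14504 bp). Weaker BTB peaks with L(3)mbt alone lay 21324 bp from 2.2 (19500 to 23054 bp), and those with 2.2 alone 25000 bp from L(3)mbt (22231 to 28108 bp). L(3)mbt was the nearer of the pair for 58.8% of weaker BTB-only peaks (56.4 to 61.1%), in a list of 2890 long-arm peaks against 2195 for 2.2. This was not particular to them, with 62.5% (58.3 to 66.6%) among BTB-only peaks at or above 3100. BTB-only peaks at or above 3100 lay farther from 2.2, at 25622 bp (23565 to 29329 bp), and their distance to L(3)mbt was 15376 bp (13252 to 18223 bp). By arm, weaker BTB-only peaks had the shorter median gap to 2.2 on 4 of 5 arms, the exception being 2L with 26942 against 25044 bp. For L(3)mbt they had the shorter one on 4 of 5 arms, the exception being X with 14653 against 11220 bp. With sharing judged by centres within 200 bp these differences were small, at 16388 against 17003 bp for 2.2 and 6631 against 6612 bp for L(3)mbt. Within the weaker BTB-only peaks the gap to 2.2 was shorter at low scores, with 16707 bp (14846 to 19041 bp) at 100 to 200 and 27145 bp (20507 to 37556 bp) at 2000 to 3100.

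**Figure D5:**
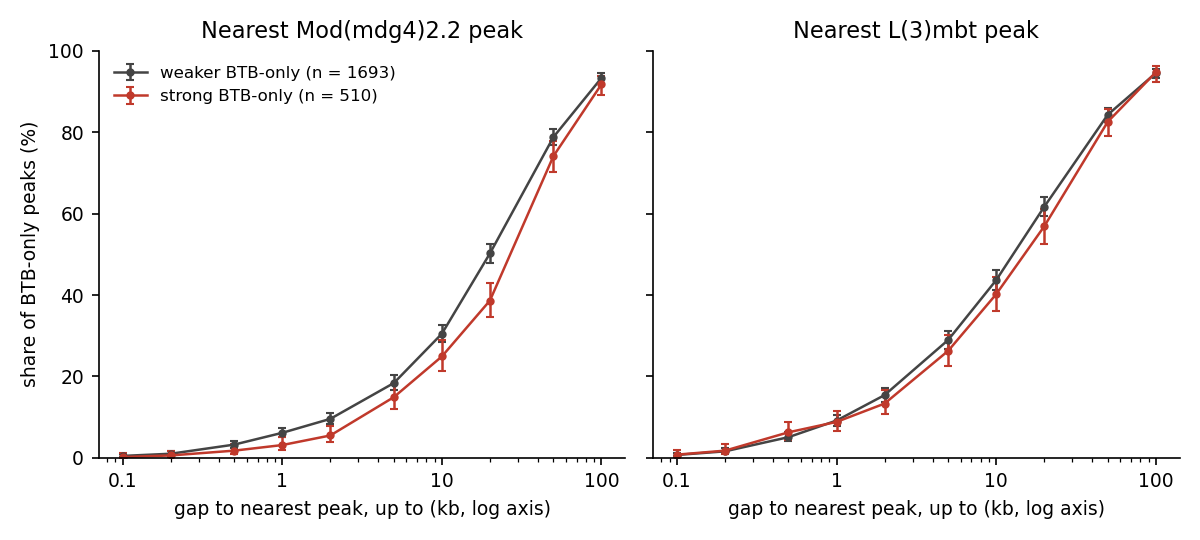
Share of BTB-only peaks with a 2.2 peak (left) or an L(3)mbt peak (right) within a given edge-to-edge gap, on a log axis, with 95% Wilson intervals. Within 20 kb of a 2.2 peak lie 50.2% of the weaker and 38.6% of the strong BTB-only peaks.

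Some peaks missed another list narrowly. A 2.2 peak lay within 1 kb of 104 weaker BTB-only peaks (6.14%, 5.10 to 7.39%), and of 3.14% (1.94 to 5.04%) of the BTB-only peaks at or above 3100. At 96 of the 104 the 2.2 peak met another BTB peak (92.3%, 85.6 to 96.1%), a share close to the 91.8% of all long-arm 2.2 peaks that did (90.5 to 92.8%). An L(3)mbt peak lay within 1 kb of 155 (9.16%, 7.87 to 10.62%), and of 8.82% (6.66 to 11.60%) of the BTB-only peaks at or above 3100. At 132 of these it met another BTB peak (85.2%, 78.7 to 89.9%), against 66.3% of all long-arm L(3)mbt peaks (64.5 to 68.0%). The closest to 2.2 were on 2R at 8902088 to 8902678, 24 bp away, and on 3L at 15641001 to 15641536 and 7753212 to 7753774, 52 and 60 bp away. Their scores were 283, 712 and 1931, and each had a BTB peak with 2.2 alone as its nearest neighbour, at 229, 278 and 163 bp. The closest to L(3)mbt were on 2R at 9867539 to 9867879, 2 bp away, on 3R at 1510116 to 1510566, 9 bp away, and on 2L at 10976630 to 10977512, 15 bp away. At the first 2 the L(3)mbt peak met another BTB peak, and at the peak on 2L it met none.

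Other weaker BTB-only peaks stood far from all 3 lists. The median gap to the nearest peak of any list was 3766 bp (3429 to 4113 bp), and 25% of the gaps were above 9519 bp. The most isolated, on 3L at 23623896 to 23624379, was 175.8 kb from any other peak and scored 108. Next came 3L at 23377790 to 23378272, 105.0 kb away with a score of 168, and 2L at 22572625 to 22573253, 101.3 kb away with a score of 1006. These 3 lay near the ends of 2L and 3L in these coordinates, the ends that join the centromere.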

How the data were processed

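Peak lists of 3 ChIP-seq libraries, 1 for each antibody, were analysed. Per the submitters' processing notes, Bowtie 0.12.5 did the alignment. The deposited lists hold a sequence name, start, end, peak name and score, and the names have the form MACS writes. The caller's version and settings and the genome build are unknown, being not given in the sources used here. Sequence names such as 2LHet are those of release 5. No gene table or genome of that release was at hand, so genes, motifs and DNA sequences were not analysed here. The deposited scores were used within the BTB list only. Positions are printed counting from 1.

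Peaks, edge-to-edge gaps and neighbours were computed from the lists, and the member count was checked with bedtools 2.31.1. Overlap meant 1 shared bp. Shares carry Wilson intervals and medians order-statistic intervals. The code was tested on simulated peaks. No test between groups was made, since each antibody has 1 library. Members, classes, score bands and comparisons were chosen with earlier results of these data known. Named peaks were the 3 with the highest and lowest scores, the widest, narrowest and most isolated, those closest to 2.2 and to L(3)mbt without overlap, the 3 longest runs and the 3 fullest windows of 1 Mb, with ties broken by arm and start. The tied window on X is also named. The peak at the upper edge on 2L, the lowest window, the 8 widest peaks as a group and the block within the run on X were added after their values were seen. Software versions were Python 3.11.15, statsmodels 0.14.6, scipy 1.17.1, pandas 2.3.3, numpy 2.4.6 and matplotlib 3.10.9.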

Additional observations from a re-analysis of the deposited data

How the results depend on the processing

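Recomputing 9 results under other settings gave 98 values, and 67 stayed within the counting interval of the reported value (for the number of peaks, within 1.5 times). Requiring 50% of the shorter peak moved none of the 9. With peak centres within 200 bp, the number rose to 2569 (41.8% of long-arm BTB peaks), the median width was 573 bp, the median score 306, the share with a BTB peak within 5 kb 58.9%, the share with a BTB-only neighbour 63.8%, and the median gaps 16388 bp to 2.2 and 6631 bp to L(3)mbt. With peaks set to 400 bp these were 36.3% of long-arm BTB peaks, 571 bp, 55.8%, 53.7%, 18799 bp and 9120 bp, the score not having moved. Counting peaks within 500 bp as shared gave 25.4% of long-arm BTB peaks, 47.9% with a BTB peak within 5 kb and 14653 bp to L(3)mbt. An upper limit of 1000 gave 22.4%, a median width of 537 bp and a median score of 224. A lower limit of 200 on all BTB peaks left 1070 peaks (21.4%), with a median width of 601 bp, a median score of 563, 43.7% with a BTB peak within 5 kb, 42.4% with a BTB-only neighbour and 21848.5 bp to 2.2. Both limits move the score and width by construction. Leaving out 2L, 2R, 3L or 3R raised the share on X to 24.0, 24.8, 24.8 and 25.4%, since fewer arms remain, and moved no other result. So the class depends on how sharing is defined and on the lowest scores. Depth is unknown, and whether peaks scoring 100 to 200 would recur in a second library was not tested. No paired analysis was possible because each antibody has 1 library.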
